A study of Homo sapiens with 12 samples.

Results

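The transcripts described here are unannotated isoforms of known genes in HCT116 cells, an established human colorectal cancer line, over a time course of hypoxia. They were chosen by class code and by FPKM. Class code j is the label that Cufflinks' comparison step gives to an assembled transcript that shares at least 1 splice junction with an annotated gene but matches none of its annotated transcripts. A transcript was counted as a member if its FPKM (fragments per kilobase of transcript, scaled to the mapped fragments of the library) was over 0.5 in at least 3 of the 12 libraries. This left 12924 members of 65117 class j transcripts, in a merged assembly of 293768 transcripts. The same filter kept 49238 transcripts of class code =, whose intron chain equals that of an annotated transcript, and 64396 transcripts of all classes. Cells were held at 21% O2 (0 h) or moved to 1% O2 for 1, 2 or 24 h, with 3 replicates of each, and poly(A) RNA was sequenced. All groups were of the same line with no other treatment, so time in 1% O2 was the only labelled difference.

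Most human genes give rise to several mature RNAs, because the spliceosome can join exons in different combinations and because transcription can start and end at different places. Proteins of the SR and hnRNP families bind the pre-mRNA and shift the choice between splice sites. In low oxygen the HIF transcription factors induce genes of glycolysis, vascular growth and oxygen sensing, and splicing of many genes is known to shift as well. An isoform can therefore rise because its gene rises, or because it takes a larger part of the gene's output. To separate these, the share of a member was defined as its FPKM in percent of the summed FPKM of all = and j transcripts past the filter at its locus, where a locus is the gene identifier of the merged assembly.

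The libraries had the markers of an epithelial line, with the exception of VIL1. EPCAM ran from 213 to 354 FPKM, KRT8 and KRT18 were above 449 FPKM throughout, and VIL1 did not exceed 0.0480 FPKM. KRT19 was at 435 to 539 FPKM up to 2 h and 925 to 1025 FPKM at 24 h, and CDH1 at 6.06 to 8.5 and 24.3 to 27.2 FPKM. PTPRC, CD3E, PECAM1 and COL1A2, which mark leukocytes, endothelium and fibroblasts, were at most 0.0301 FPKM in any library. COL1A1 was the exception, at 1.58 to 2.45 FPKM up to 2 h and 5.75 to 8.79 FPKM at 24 h. The files give no counts, so the depth behind a value is unknown. Summed FPKM over all transcripts ranged from 1534760 to 5258189, and over transcripts of at least 300 bases from 642174 to 753519.

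The members were long and of low abundance. Their median length was 3675 bases (quartiles 2220 and 5688), compared with 1296 bases for = transcripts. Their median of mean FPKM was 0.770, compared with 1.46 for = transcripts. Only 3101 members (24.0%) were over 0.5 FPKM in all 12 libraries, against 43.9% of = transcripts. A member was listed at 0 in at least 1 library in 5250 cases (40.6%), and 1825 members (14.1%) were listed at 0 in a library and over 1 FPKM in another of the same time point. Such values can be failed estimates, since Cufflinks divides reads between overlapping isoforms.

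The FPKM minimum cut through a continuous range. Just inside it were transcripts of DUSP8, RC3H1 and PGAP2, whose third-highest FPKM was between 0.500049 and 0.500168. Just outside were transcripts of PACRGL, TAF1D and RP11-514P8.6, between 0.499882 and 0.499952. Passing through a single time point was rare before 24 h. There were 21 members over the minimum only in the 3 libraries of 0 h, 9 only in those of 1 h, 6 only in those of 2 h and 424 only in those of 24 h.

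Most members had a protein-coding transcript as their nearest reference. Of 11680 members whose nearest reference could be matched to GENCODE, that reference was protein coding for 9400 (80.5%), a target of nonsense-mediated decay for 1053 (9.02%), a long noncoding RNA for 625 (5.35%) and a retained-intron transcript for 43 (0.368%). Among = transcripts, 58.6% were protein coding and 15.5% retained intron. Members were longer than the nearest reference in 6819 cases and shorter in 6096, and the median difference was 35 bases (quartiles -334 and 780). The start-site group, which gathers transcripts that begin at the same place, was shared with an = transcript past the filter for 7264 members (56.2%). The other 5660 began at a site without such a transcript. Exon coordinates of the assembled isoforms were not used here, so a difference in length cannot be assigned to a particular exon.

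The members came from 6567 loci. There was 1 member at 3458 loci, 2 to 4 at 2700 and at least 5 at 409, with at most 20 at a locus. Among loci with a single gene name, KLHL17 held the most, with 14 members. TCF3, a helix-loop-helix transcription factor, and FBRSL1 held 13 each. CELF1, an RNA-binding regulator of splicing, held 12. The summed class j share at 0 h was 86.4% for KLHL17, 84.6% for CELF1, 69.1% for FBRSL1 and 23.1% for TCF3. No single member of these loci exceeded 24.4% on average at 0 h. At 24 h none of these 4 loci passed the test of the summed share described below (adjusted p from 0.0754 to 0.909).

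The most abundant members belonged to highly expressed housekeeping genes and were dominant or near-dominant forms of them. The class j transcript of PTMA, encoding prothymosin alpha, took 47.4%, 52.4% and 46.6% of its locus in the 0 h libraries and 46.1%, 47.2% and 52.3% in the 24 h libraries. For NCL, which encodes the nucleolar protein nucleolin, the share was 91.8%, 92.6% and 87.3% at 0 h and 94.9%, 93.5% and 85.3% at 24 h. The ranges overlapped for both. FPKM of the NCL member nonetheless fell from 996 ± 106 to 332 ± 11.7 (SD, n = 3), with a log2 change of -1.58 and an adjusted p of 4.96e-06 in limma. Thus the level of this member fell, while no change in its share was detectable.

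The other abundant members were of RPLP1 and RPS4X (ribosomal proteins), PFN1 (profilin), H2AFZ (histone H2A.Z) and UQCRB (a subunit of respiratory complex III). Their mean shares at 0 h ran from 39.1% for PFN1 to 93.8% for UQCRB. At 24 h the shares were between 39.8% and 94.7%, and adjusted p for usage was between 0.222 and 0.926. The 24 h libraries nonetheless lay above those of 0 h for RPLP1 (57.2% to 59.9% at 0 h and 61.7% to 62.3% at 24 h) and RPS4X (58.2% to 66.0% and 67.5% to 71.5%), and diffSplice called both (adjusted p = 0.0111 and 0.0113). FPKM rose for RPLP1 (log2 change 0.53, adjusted p = 0.00953) and RPS4X (0.49, adjusted p = 0.00622) and fell for H2AFZ (-0.93, adjusted p = 0.000255). Several of these genes have processed pseudogenes with near-identical sequence, so the reads assigned to them are uncertain.

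Across all members, a class j transcript was typically a minor part of its locus. The median share in a library averaged 5.33% ± 0.297 at 0 h and 5.75% ± 0.386 at 24 h (SD, n = 3; exact permutation test, two-sided, p = 0.2), and 5.51% and 5.67% without members that passed through a single time point (exact p = 0.6). With all members, this median averaged 5.47% ± 0.0751 after 1 h and 5.86% ± 0.275 after 2 h (exact p = 0.7 and 0.2 against 0 h). The mean after 2 h was thus above that after 24 h, though the libraries of these time points overlapped. On average over the 0 h libraries 512 members were above 50% of their locus and 5620 below 5%. At 24 h these numbers were 547 and 5441. They were 511 and 5626 after 1 h, and 492 and 5429 after 2 h. With 3 libraries against 3 the exact test cannot go below 0.1.

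The share fell steeply with the number of isoforms at the locus, which in part follows from how a share is made. At loci with 2 = and j transcripts the median member share was 26.6% ± 2.24 at 0 h and 30.8% ± 2.12 at 24 h. It was 11.3% ± 0.542 and 12.7% ± 0.230 with 3 to 4 transcripts, 5.78% ± 0.215 and 6.04% ± 0.421 with 5 to 9, and 2.82% ± 0.250 and 3.05% ± 0.297 with 10 to 19. With 20 and over, it was 1.31% ± 0.121 at 0 h and 1.22% ± 0.197 at 24 h. Only the class with 3 to 4 transcripts reached the smallest exact p of 0.1 at 24 h, and the others gave p from 0.2 to 0.6. Without members that passed through a single time point the values were 27.8% and 29.3% with 2 transcripts, 11.7% and 12.3% with 3 to 4, 5.96% and 5.99% with 5 to 9, 2.95% and 3.04% with 10 to 19, and 1.47% and 1.28% with 20 and over (exact p from 0.2 to 1). With all members, the medians in the same order were 28.8%, 11.7%, 5.86%, 2.94% and 1.29% at 1 h (exact p from 0.3 to 0.8). At 2 h they were 30.1%, 11.9%, 6.27%, 3.14% and 1.41%. There the classes with 2 and with 5 to 9 transcripts reached an exact p of 0.1, and the others gave 0.2 to 0.3.

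By length, the 9 members under 300 bases had a median share of 32.7% ± 21.8 at 0 h and 27.3% ± 13.7 at 24 h. Members from 300 to under 1000 bases had a median share of 8.89% ± 1.33 at 0 h, those from 1000 to under 2000 bases 5.81% ± 0.213, those from 2000 to under 4000 bases 5.08% ± 0.235, and those of 4000 and over 5.2% ± 0.281. At 24 h the values of these 4 classes were 9.05% ± 0.466, 5.54% ± 0.0688, 5.32% ± 0.258 and 5.91% ± 0.584. Members from 1000 to under 2000 bases were lower in every 24 h library than in every 0 h library (exact p = 0.1). The ranges of 0 h and 24 h overlapped in the other classes. In the same 4 classes the medians were 9.96%, 5.94%, 5.15% and 5.35% at 1 h, and 10.7%, 6.01%, 5.43% and 5.90% at 2 h. The 2 h libraries lay above those of 0 h from 2000 to under 4000 bases and at 4000 and over (exact p = 0.1 in both). Without members of a single time point, the difference of 24 h minus 0 h was -0.225 points in the class from 300 to under 1000 bases, -0.458 in that from 1000, 0.0646 in that from 2000 and 0.377 in that of 4000 and over.

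**Figure D1:**
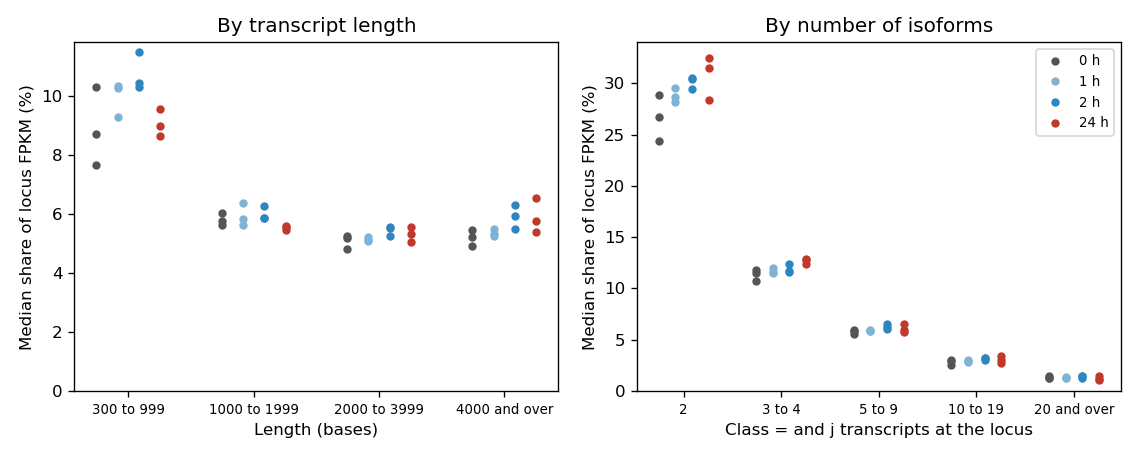
Median share of locus FPKM (%) of class j transcripts in each library, by transcript length in bases (left) and by the number of class = and j transcripts at the locus (right); each point is 1 library and colours mark 0, 1, 2 and 24 h in 1% O2. The median falls from 26.6% at loci with 2 transcripts to 1.31% at loci with 20 and over at 0 h. The 2 h libraries lie above those of 0 h from 2000 to under 4000 bases, at 4000 and over, and with 2 and 5 to 9 transcripts. The 24 h libraries lie above those of 0 h with 3 to 4 transcripts and below them from 1000 to under 2000 bases.

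Next, all class j transcripts of a locus were added together. At the 6247 loci with both classes, the median summed class j share was 13.0%, 13.0% and 13.3% in the 0 h libraries and 13.9%, 14.4% and 14.6% in the 24 h libraries. The 24 h libraries were all above the 0 h libraries. The mean was 13.1% ± 0.165 before hypoxia, 13.2% ± 0.0766 after 1 h, 13.6% ± 0.144 after 2 h and 14.3% ± 0.361 after 24 h (SD, n = 3). Exact permutation tests against 0 h gave p = 0.3, 0.1 and 0.1, the last 2 being the smallest that the design allows. With a minimum of 1 FPKM the difference at 2 h shrank from 0.477 to 0.0781 points (exact p = 0.8), while that at 24 h was 1.31 points (exact p = 0.1). The 424 members that passed through the 24 h libraries alone are high there by selection. Without transcripts that passed through a single time point the difference at 24 h fell from 1.22 to 0.80 points, and with no FPKM minimum it was 1.04 points, with every 24 h library still above the 0 h libraries (exact p = 0.1 in both).

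A class j transcript was the major isoform, meaning the one with the highest FPKM of its locus, at 1001, 955 and 976 loci in the 0 h libraries. The count was 1010, 967 and 918 at 1 h and 954, 943 and 954 at 2 h, which overlapped or lay below the 0 h values. In the 24 h libraries it was 1040, 1061 and 1048, above every other library (72.3 more loci on average than at 0 h, exact p = 0.1). The difference was 63.3 loci without the transcripts that passed through a single time point and 111.3 with no FPKM minimum, each with an exact p of 0.1. The lower count at 2 h turned into a higher one, by 31.3 loci, when no FPKM minimum was applied.

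**Figure D2:**
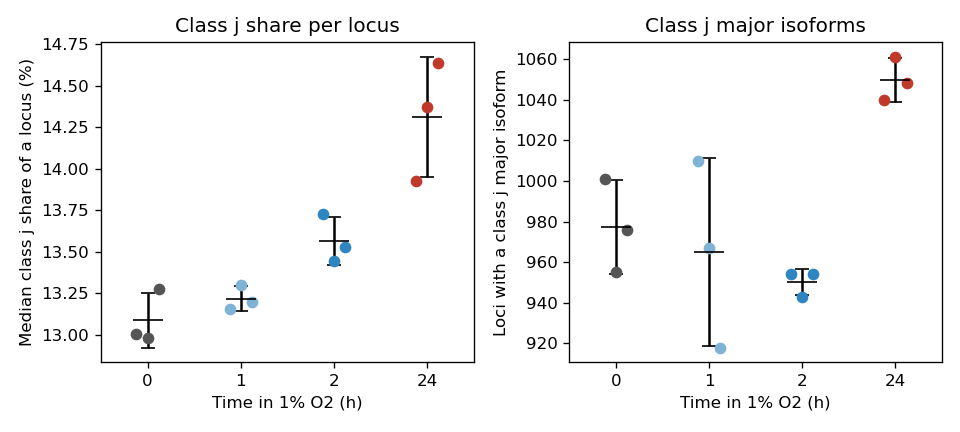
Median summed class j share of a locus in percent (left) and number of loci whose major isoform is of class j (right), against hours in 1% O2; points are libraries, and bars show the mean ± SD of 3. The vertical axes do not start at 0. The 24 h libraries lie between 13.9% and 14.6% and between 1040 and 1061 loci, above the 0 h libraries in both panels.

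Changes in usage were tested for each transcript on the log2 ratio of its FPKM to that of the rest of its locus, with 0.5 added to both, by limma across 57784 = and j transcripts. No member passed an adjusted p of 0.05 at 1 h or at 2 h, although 682 and 1012 members had an unadjusted p under 0.05. Over all = and j transcripts the called share was 0.00346% at 1 h and 0.00173% at 2 h. Shares did not overlap between the time point and 0 h for 1395 members (11.0%) at 1 h and 1843 (14.5%) at 2 h, where the background over all transcripts was 11.0% and 14.6%. Limma's diffSplice, which compares each transcript with the others of its locus, called 21 members at 1 h (0.165%, in a background of 0.22%) and 68 at 2 h (0.535%, in a background of 0.623%). The level of a member passed at 2 h in 2 cases, in a background of 0.00322%, and in none at 1 h (695 with an unadjusted p under 0.05; background 0.00483%).

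The clearer of these 2 early changes was in ANKRD10, an ankyrin repeat gene, where a member of 1291 bases had 4.09, 4.02 and 3.27 FPKM at 0 h and 31.1, 15.2 and 16.9 FPKM at 2 h. It was already at 12.2, 8.5 and 8.15 FPKM at 1 h and reached 29.9, 30.7 and 26.4 FPKM at 24 h. The libraries of each hypoxic time point lay above those of 0 h, and the log2 change at 2 h was 2.26 ± 0.25 (SE, adjusted p = 0.0436 in limma). The other was a 212-base transcript of LPP, listed at 0 in every library outside 2 h and at 2.58, 3.58 and 1.90 FPKM there. Both genes were named after their values were seen. Values of transcripts this short are unreliable in FPKM, and the LPP transcript passed the FPKM minimum through the 2 h libraries alone, which fixes its direction. No member was called at 2 h when transcripts under 300 bases were left out, with a minimum of 1 FPKM or with only the 6 libraries of the contrast, so both calls were lost in each.

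At 24 h, 1647 of 12713 tested members changed usage, 917 towards a higher and 730 towards a lower share of the locus in the log ratio. With no FPKM minimum the balance turned round, with 6143 of 50827 class j transcripts called higher and 7662 lower (27.2% called). The = transcripts also leaned to lower calls there, with 13164 of 119974 higher and 14425 lower (23% called), compared with 2745 and 2722 past the minimum. The turn was thus not particular to class j. The 1647 called members are 13.0% of those tested, compared with a background of 12.3% over all = and j transcripts. By direction, 7.21% of members were called higher and 5.74% lower, where the background was 6.34% and 5.97%. The calls lay at 1351 loci, of which 119 held members called in both directions. The median change of mean share was 8.19 percentage points among members called higher and -7.64 among those called lower, and 675 of the 1647 moved by at least 10 points (389 up, 286 down). Shares at 24 h and 0 h did not overlap for 29.3% of members, against 27.9% of all transcripts. Of the 424 members that passed the FPKM minimum through the 24 h libraries alone, 120 were among those called higher, a direction that their choice fixes. Without members that passed through a single time point, 1495 remained called, 797 higher and 698 lower.

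With a fixed 0.5 added, the ratio of a weak transcript moves with the level of its locus. Tested on the arcsine square root of the share, which lacks this property, 1206 members changed (708 higher, 498 lower, and 538 and 485 without members of a single time point), against a background of 8.64%, and 993 were called in the same direction by both tests (595 and 398). For 22 of the 1647 members the mean share moved against the log ratio. The count was 984 without replicate 1 of 0 h, 1047 without replicate 2 of 0 h and 1067 without replicate 2 of 24 h.

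Usage and level gave different calls for many members. FPKM changed for 3013 members (23.3%, background 26.7%) at 24 h, 1714 up and 1299 down, or 13.3% and 10.1% of members against a background of 11.3% and 15.3%. Since FPKM chose the members, this is a description. Without those that passed through a single time point, 1350 (10.8%) were called up and 1283 (10.3%) down. Of the members called higher in usage, 517 also rose in FPKM, and 387 of those called lower also fell. There were 692 members with a usage call and no level call, and 2058 with a level call and no usage call. The split of higher and lower level calls was 1948 and 1138 with median-of-ratios scaling and 1440 and 1417 after rescaling to TPM without transcripts shorter than 300 bases. Both splits are of members alone, without a background under the same scaling, so they do not set members apart from = transcripts.

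Between 2 and 24 h 1143 members changed usage, or 8.99% in a background of 8.44%. Of the 1647 members called against 0 h, 838 were also called against 2 h in the same direction. The 2 comparisons share the 24 h libraries.

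Of 6719 tested members longer than their nearest reference, 589 were called higher (8.77%) and 391 lower (5.82%), and of 5985 shorter ones 327 (5.46%) and 339 (5.66%). Without members that passed through a single time point the shares were 7.87% and 5.77% of the longer and 4.97% and 5.60% of the shorter ones. The background over all = and j transcripts, which kept those of a single time point, was 6.34% higher and 5.97% lower. By the arcsine test, again without members of a single time point, 5.24% of the longer members were called higher and 3.93% lower. Of the shorter ones it was 3.43% and 3.98%. The arcsine background of 4.37% and 4.27% also kept transcripts of a single time point. By length and the log ratio, with the same members left out, 7.11% of the members of 4000 bases and over were called higher and 5.75% lower. From 1000 to under 2000 bases it was 5.19% and 5.80%. Among = transcripts, with none left out, 442 of the 5951 of 4000 bases and over were called higher and 345 lower. From 1000 to under 2000 bases it was 626 and 670 of 9830, so the tilt with length was also present in = transcripts. The percentage of members called rose from 9.65% at loci with 2 transcripts to 21.0% at loci with 20 and over, compared with 10.5% and 17.2% of = transcripts. These are counts of calls, and the differences between classes were not tested.

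The largest changes in share were taken from called members of at least 300 bases, at loci of at least 5 FPKM with a single gene name and non-overlapping libraries. The 957 members that met these conditions include the 10 gains and 9 losses named here, which were selected for the size of their change.

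PRKAR1B, a regulatory subunit of protein kinase A on chromosome 7 (hg19, 588822 to 829190), had a member of 2406 bases, 147 shorter than its nearest coding reference. Its share was 2.99%, 2.52% and 5.58% at 0 h, between 1.59% and 12.8% at 1 and 2 h, and 48.3%, 51.1% and 60.5% at 24 h. The 24 h libraries stood far above all others. The log2 ratio rose by 4.0 ± 0.49 (SE, adjusted p = 0.00103), while the locus was at 14.4 FPKM at 0 h and 13.3 FPKM at 24 h. The annotated form that lost most, ENST00000430040, went from 52.0% to 27.0%.

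FADS3, a member of the fatty acid desaturase family, showed a similar exchange. Its member of 2809 bases, 1030 longer than the reference, was at 17%, 16.8% and 16.6% at 0 h and 54.0%, 64.5% and 58.9% at 24 h. The libraries of 0 h were tight and did not overlap with those of 24 h (log2 change 2.59 ± 0.21, adjusted p = 0.000198). The reference itself, ENST00000278829, fell from 66.6% to 26.2%.

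NR1D1, which encodes the circadian nuclear receptor REV-ERB alpha, had 2 isoforms past the filter. The class j form had 3.47%, 36.1% and 39.6% in the 0 h libraries, then 26.6%, 60.5% and 55.9% after 1 h and 40.6%, 50.2% and 61.9% after 2 h. The 24 h libraries had 75%, 76.7% and 69.0%. Replicates of 0 h were spread widely, but all lay below those of 24 h (adjusted p = 0.0186). The call was lost without replicate 2 of 24 h (adjusted p = 0.0584). The locus rose from 9.59 to 48.3 FPKM, so that the member itself went from 2.93 ± 2.38 to 35.4 ± 1.93 FPKM (SD, n = 3).

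FMNL2, a formin that elongates actin filaments, had a member with practically no share at 0 h. It did not exceed 0.0386% at 0 h or 0.0445% after 1 h. The 2 h libraries had 12.9%, 2.16% and 16.4% and the 24 h libraries 28.1%, 31.0% and 53.9% (adjusted p = 0.00142). All 2 h libraries exceeded all earlier ones. The transcript that lost most was another class j form, from 78.8% to 50.8%, which was 47 bases shorter.

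DPY19L1, a gene for a C-mannosyltransferase, had an exchange between 2 members that differed by 199 bases. The 5001-base form rose from 3.76% ± 3.33 to 38.9% ± 15.8 (adjusted p = 0.00286) and the 5200-base form fell from 38.8% ± 5.46 to 5.84% ± 7.46 (SD, n = 3; adjusted p = 0.0231). The fall was lost without replicate 1, 2 or 3 of 0 h and without replicate 1 or 2 of 24 h, with an adjusted p of 0.0516 to 0.0674, and with 0.1 FPKM added (0.0574). The other gains were in BROX (9.52% to 47.2%), ZNF33B (15.3% to 52.1%), the noncoding RP11-78C3.1 (40.8% to 75.5%), C6orf89 (27.1% to 61.4%) and the death-domain kinase RIPK1 (7.46% to 41.5%), with an adjusted p between 0.0056 and 0.0137. BROX lost its call without replicate 2 of 0 h (adjusted p = 0.0517) and RIPK1 without replicate 2 of 24 h (adjusted p = 0.0504) and with 0.1 FPKM added (0.0662).

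Losses of share included that of HMGA2, an architectural chromatin protein, which had 2 members that moved in opposite directions. The 3849-base form had 55.3%, 50.5% and 52.0% at 0 h and 2.79%, 9.17% and 11.1% at 24 h (log2 change -3.82 ± 0.40, adjusted p = 0.000526). The 3915-base form rose from 4.19% ± 1.33 to 17.1% ± 6.16 (SD, n = 3; adjusted p = 0.0072). The gain that was largest at this locus was in ENST00000545998, annotated as a retained-intron transcript, from 11.2% to 29.5%.

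SAFB2, a nuclear scaffold-attachment protein with RNA-binding domains, lost share in its class j form from 80.6%, 79.9% and 75.9% at 0 h to 43.4%, 36.0% and 37.1% at 24 h. Groups were well apart (log2 change -2.46 ± 0.23, adjusted p = 0.000381). Here too the transcript that gained most, ENST00000592599, is annotated as retained intron, and rose from 10.7% to 27.9%. ATF6, a sensor of endoplasmic reticulum stress, had a short form of 2348 bases at 74.4%, 74.8% and 72.9% at 0 h. Its range was 57.9% to 68.0% after 1 h and 54.0% to 66.8% after 2 h, and the 24 h libraries had 20.8%, 41.0% and 33.5% (adjusted p = 0.00138). Every hypoxic library of ATF6 was below the 0 h libraries.

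In CENPE, the kinetochore motor, 1 class j form gave way to another. The 8467-base member fell from 43.9% ± 5.24 to 10.5% ± 9.31 (adjusted p = 0.00716), and a member 75 bases shorter, listed at 0 in all 0 h libraries, reached 30.2%. In NOL8, a nucleolar protein, a member fell from 35.0% to 5.43% as another went from 0.255% to 16.9%. The members that gained in CENPE and NOL8 passed the FPKM minimum through the 24 h libraries alone, so their direction was fixed. The remaining losses were in C16orf70 (60.9% to 14.3%), ANKS6 (51.5% to 17.2%) and TEKT4P2 (54.3% to 23.5%). The TEKT4P2 call was lost without replicate 2 of 24 h (adjusted p = 0.0501), and its reads may be shared with related copies.

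**Figure D3:**
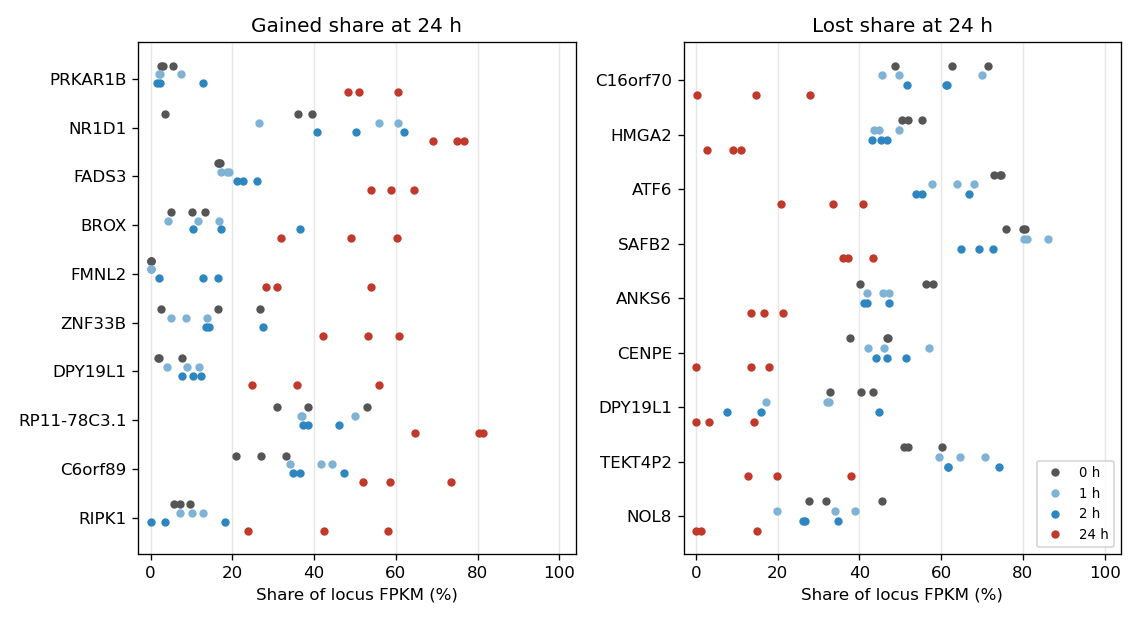
Share of locus FPKM (%) of the 10 members with the largest gain (left) and 9 of those with the largest loss (right) at 24 h, selected for that change; each point is a library and colours mark hours in 1% O2. SAFB2 lies at 75.9% and over at 0 h and at most at 43.4% at 24 h, and PRKAR1B at most at 5.58% and at 48.3% and over, while 1 h and 2 h libraries mostly lie with those of 0 h.

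The major isoform differed in class between 0 h and 24 h, in all 3 libraries of each, in both directions. It went from = at 0 h to j at 24 h at 57 loci and from j to = at 46, while 403 loci kept a class j major isoform and 4432 kept an = major isoform. Among loci of a single gene name with the highest FPKM, DDR1, WTAP, SERPINB1 and NR1D1 went to class j. DDR1 is a collagen receptor kinase, and its summed class j share was 19.8%, 12.8% and 11.9% at 0 h and 43.2%, 42.3% and 30.5% at 24 h (adjusted p = 0.00939). WTAP, a subunit of the RNA methyltransferase that deposits m6A, went from 36.0%, 36.2% and 38.5% to 74.6%, 64.1% and 59.3% (adjusted p = 0.00266). Both were apart in every library. For SERPINB1 the summed share was 31.5% and 41.0%, a difference that was not significant (adjusted p = 0.165).

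In the opposite direction, TXN, TPM4, PDHA1 and HMGA2 went from a class j to an = major isoform. The thioredoxin gene TXN had a summed class j share of 57.4%, 55.0% and 53.1% at 0 h and 29.1%, 36.4% and 35.3% at 24 h (adjusted p = 0.0221). For TPM4, a tropomyosin, it was 54.7% and 46.9% (adjusted p = 0.157), and for PDHA1, a subunit of pyruvate dehydrogenase, 46.2% and 39.9% (adjusted p = 0.231). Libraries did not overlap for these genes, yet only TXN and HMGA2 passed the test.

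The summed class j FPKM of each locus was also tested against its summed = FPKM. At 24 h 834 of 6247 loci changed (13.4%), 527 towards class j (8.44%) and 307 away from it (4.91%). Without = and j transcripts that passed the FPKM minimum through a single time point, 464 of 6122 loci changed towards class j and 302 away, and with no minimum 1163 and 646 of 11656. The mean share was higher at 3338 loci and lower at 2908, with a median change of 0.232 points. Leaving out replicate 1 of 0 h, replicate 2 of 0 h or replicate 2 of 24 h reduced the number to 462, 535 and 526.

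Of 30 listed splicing factors, 16 had members, 44 in all, of which 13 were called higher and 3 lower. This is 36.4%, where the background over all = and j transcripts was 12.3% (6.34% higher and 5.97% lower). The list was not tested as a set, and 12 of its members lie at the SRSF1 locus. A called member of SRSF1 and one of SRSF9 passed the FPKM minimum through the 24 h libraries alone. Of the calls, 8 higher and 2 lower calls were also made by the arcsine test. The members called lower were in HNRNPA1, SRSF1 and HNRNPD. SRSF6, an SR protein, had a member of 3790 bases, 2110 longer than its nearest reference, which is annotated as a target of nonsense-mediated decay. Its share was 3.07%, 2.88% and 1.83% at 0 h and 7.81%, 14.8% and 21.7% at 24 h. The groups were apart (log2 change 2.54 ± 0.40, adjusted p = 0.00335), and the locus fell from 163 to 53.8 FPKM.

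SRSF1, the best-known SR protein, had 12 members, of which 5 were called higher and 1 lower. The summed class j share of its locus, which also carries RP11-159D12.2, was 18%, 11.9% and 15.7% at 0 h and 19.5%, 23.0% and 22.4% at 24 h (adjusted p = 0.0751), as the locus went from 267 to 110 FPKM. It passed with 1 FPKM added in place of 0.5 (adjusted p = 0.0423), with no FPKM minimum (0.0434) and without transcripts that passed through a single time point (0.00578). At the joint locus of RBM5 and RBM6 the summed share was 7.63%, 8.32% and 6.92% at 0 h and 23.5%, 37.4% and 20.9% at 24 h (adjusted p = 0.0108). All 3 called members of RBM5 were higher. For SRSF11 the summed share was 9.93% and 13.9%, without a call (adjusted p = 0.214).

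Among DNA repair and checkpoint genes, 23 of 29 had members, 54 in all, with 5 called higher and 1 lower. This is 11.1%, compared with a background of 12.3%, and 1 call in each direction was also made by the arcsine test. A member of CLSPN called higher by the log ratio had a mean share that went from 1.87% to 1.21%. The list holds genes that the study discusses from these libraries, so its counts are not independent evidence. BRCA1, a mediator of homologous recombination, had a summed class j share of 20.7%, 23.3% and 26.3% at 0 h, and 30.5%, 58.1% and 62.0% at 24 h (log2 change 1.56 ± 0.41, adjusted p = 0.0289), while the locus fell from 12.6 to 4.56 FPKM. The call was lost when any single 0 h replicate or replicate 2 or 3 of 24 h was left out, with 0.1 FPKM added and with no FPKM minimum (adjusted p from 0.0534 to 0.0979). TP53BP1 had a single member of 11061 bases, 4715 longer than its reference. Its share was 6.25%, 6.74% and 6.54% at 0 h and 11.8%, 13.5% and 15.5% at 24 h. The groups did not overlap, but the adjusted p of the member was 0.048 by the log ratio and 0.0515 by the arcsine test, and the call of the locus was lost when any single replicate of either time point was left out. For CHEK1, whose locus also holds STT3A, the summed share was 2.43% and 4.70% (adjusted p = 0.134).

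Of 20 listed HIF targets 11 had members, 13 in all, with 2 called higher and 5 lower (53.8%, in a background of 12.3%, 6.34% higher and 5.97% lower). By both tests 1 was higher and 2 were lower. The higher one was in PFKFB4, a regulator of glycolysis at a locus merged with COL7A1 and SHISA5, whose summed class j share was listed at 0 in all 0 h libraries and was 20.4%, 21.4% and 16.8% at 24 h. This member passed the FPKM minimum through the 24 h libraries alone, so its direction was fixed and no test is given. The lower ones were 2 members of P4HA1, a collagen prolyl hydroxylase, each of 4356 bases, which went from 3.58% to 0.686% and from 5.87% to 1.66%. DDIT4 and MXI1 had members called lower by the log ratio whose mean share was higher, 0.202% and 0.698% in DDIT4 and 0.163% and 1.19% in MXI1, where the member again passed through the 24 h libraries alone. ANKRD37 went from 11.5% ± 9.38 to 1.88% ± 0.398 (SD, n = 3) as its locus rose from 1.8 to 111 FPKM. EGLN1, the oxygen-sensing prolyl hydroxylase, had a summed share of 12% and 21.8%, and PFKFB3 of 20.3% and 10.5%, neither past the test (adjusted p = 0.107 and 0.0569). PFKFB3 passed with 1 FPKM added (adjusted p = 0.0285), with no FPKM minimum (0.0456) and without replicate 1 of 0 h (0.0282).

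Of 19 glycolytic genes, 12 had members, and the median summed class j share of their loci was 1.8% at 0 h and 1.41% at 24 h. At 0 h it ran from 0.126% for LDHA, lactate dehydrogenase A, to 11.0% for ENO2. Of 19 members, 2 were called higher and 5 lower (36.8%, in a background of 12.3%), with 2 in each direction by both tests. In PKM, pyruvate kinase, a 4132-base member went from 0.632% ± 0.126 to 2.41% ± 0.256 and a 2270-base member from 3.54% ± 0.306 to 0.581% ± 0.522 (SD, n = 3), while the summed share was 4.34% and 3.33% (adjusted p = 0.236). In ENO2, an enolase whose locus is merged with neighbouring genes, a 3649-base member went from 2.2% to 10.2% and a 12928-base member from 1.8% to 0.551%. Their summed share with the other class j transcripts of the locus was 11.0% and 12.1% (adjusted p = 0.835). ALDOA had 0.895% and 0.341% (adjusted p = 0.00302 by the log ratio, while the arcsine test of its single member gave 0.0724) as its locus rose from 966 to 4127 FPKM, PGAM1 0.206% and 0.389%, and ENO1 1.85% and 1.44%, the last 2 without a call.

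Chromatin demethylases, many of them oxygen-dependent enzymes, had members in 9 of 13 genes, with 1 of 20 members called higher and 4 lower (25%, in a background of 12.3%, 6.34% higher and 5.97% lower). By both tests 1 was higher and 2 were lower. KDM2A, a histone H3 lysine 36 demethylase whose isoforms the study depicts, accounts for the higher call. Its 6837-base member was at 20.4%, 21.7% and 16.3% at 0 h and 36.3%, 52.1% and 43.9% at 24 h (adjusted p = 0.0108). Its 979-base member, 5988 bases shorter than the reference, was at 12.5%, 23.2% and 24.2% at 0 h and 8.45%, 5.43% and 8.25% at 24 h (adjusted p = 0.0114). Neither overlapped between 0 h and 24 h, though diffSplice made no call of the 979-base member (adjusted p = 0.276). ENST00000530342, at 29.1% at 0 h, was listed at 0 at 24 h.

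In KDM6B a member of 7615 bases went from 24.5% ± 9.28 to 3.56% ± 1.20 (adjusted p = 0.000645), and the summed share was 38.8% and 22.7% (adjusted p = 0.0662, 0.0258 with 1 FPKM added and 0.036 without replicate 3 of 1 h). For KDM4C the summed share was 15.8% ± 2.56 and 8.52% ± 2.62 (SD, n = 3; adjusted p = 0.0321), a call that was lost when any single 0 h replicate or replicate 1 or 2 of 24 h was left out, with 0.1 FPKM added and with no FPKM minimum. KDM5B had 64.2% and 37.2% (adjusted p = 0.0711, 0.04995 with 1 FPKM added and 0.0222 without replicate 1 of 1 h). Among 9 kinases and phosphatases that the study named from these libraries, 3 had members, and 1 of 5 members was called, lower, in STK32C (20%, in a background of 12.3%, 5.97% lower), which the arcsine test did not call (adjusted p = 0.0696). MAP3K3 went from 23.2% ± 13.5 to 7.67% ± 4.17 without a call (adjusted p = 0.0631, 0.0456 with 1 FPKM added, 0.0472 with no FPKM minimum and 0.0497 without replicate 3 of 2 h). MAP3K8 had 1 class j transcript, whose third-highest FPKM of 0.453 kept it below the minimum.

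**Figure D4:**
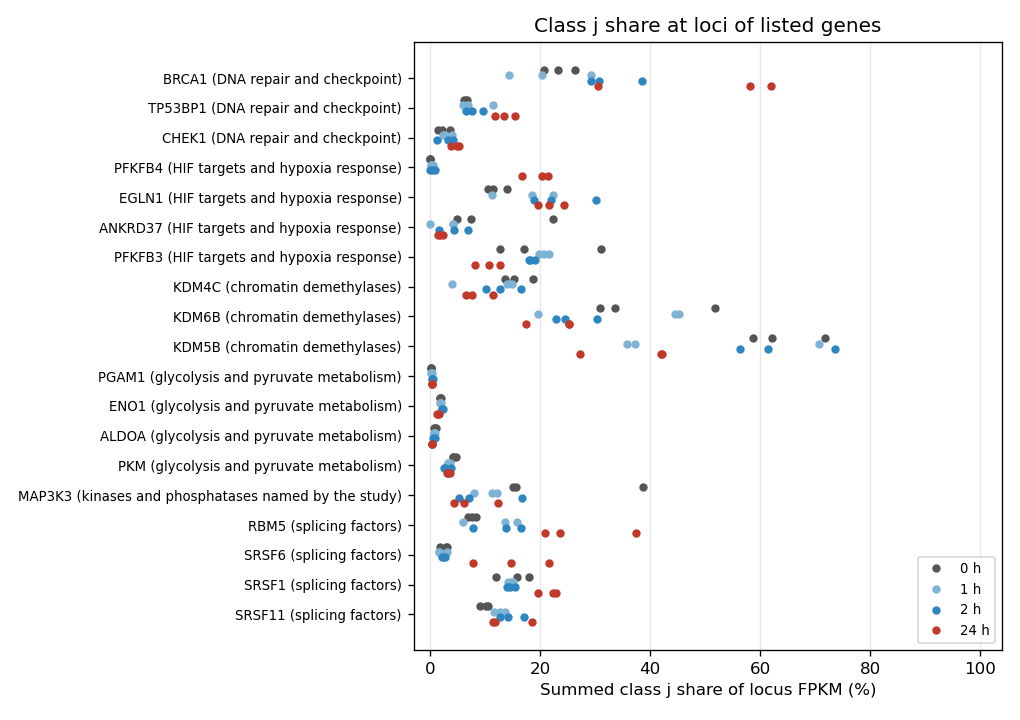
Summed class j share of locus FPKM (%) at the loci of the listed genes whose 0 h and 24 h libraries do not overlap, up to 4 for each list with the largest change; each point is a library and colours mark hours in 1% O2. BRCA1, RBM5 and SRSF6 lie higher at 24 h, as does PFKFB4, whose direction the FPKM minimum fixed, and KDM4C, KDM5B and KDM6B lower, with KDM5B and KDM6B short of the test's threshold.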

How the data were processed

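Poly(A) RNA of 12 HCT116 libraries (4 time points, 3 replicates each) was sequenced as strand-specific read pairs. The deposited FPKM values and class codes were made by the authors with CASAVA 1.8.2, MapSplice on hg19, Cufflinks for each sample and Cuffmerge with Ensembl annotation. The authors' filter on splice-junction reads needs the reads and was not repeated. The files give no counts, so depth is unknown and no counting interval is given. Columns that belong to no labelled sample numbered 0. The series' design text calls the replicates biological.

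Members are class j transcripts over 0.5 FPKM in at least 3 libraries. The rule uses FPKM, so levels alone are a description. Members and gene lists were chosen with earlier results of these data known. Usage was tested with limma 3.58.1 (R 4.3.3, trend, all 12 libraries) on log2((FPKM + 0.5)/(rest of locus + 0.5)) and level on log2(FPKM + 0.5), which understates changes of weak transcripts, with Benjamini-Hochberg adjustment over all = and j transcripts tested. For values of whole libraries an exact permutation test was used, two-sided (scipy 1.17.1). Scripts were tested on simulated data. Reference biotypes came from GENCODE. Named members were the 10 largest gains and losses of share at 24 h past adjusted p of 0.05, of at least 300 bases, at loci of at least 5 FPKM with 1 gene name and non-overlapping libraries; up to 3 in each direction at 1 h and 2 h by the same conditions, of which there were none; the 8 members of highest FPKM; the 5 loci with most members; up to 4 genes for each list; the 4 switched loci of highest FPKM in each direction; KDM2A and MAP3K8; and 3 transcripts on each side of the FPKM minimum. A few items that this rule selects are not reported here. The test of summed class j share and its settings, the count by both tests, the count without members of a single time point and the count of changes of at least 10 points were added after seeing the data.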

Additional observations from a re-analysis of the deposited data

Results flagged for a closer look

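Usage at 24 h differed from usage at 2 h for 1143 members by the limma contrast between these time points, and 17 of the named members were among them. The log2 ratio at 24 h minus that at 2 h was 3.72 for PRKAR1B, 2.52 for RIPK1, 2.34 for the 5001-base member of DPY19L1, 2.06 for FADS3, 2.05 for FMNL2, 1.93 for RP11-78C3.1, 1.79 for ZNF33B and 1.43 for the 6837-base member of KDM2A. It was -3.38 for HMGA2, -2.95 for C16orf70, -2.46 for CENPE, -2.43 for TEKT4P2, -2.10 for NOL8, -1.74 for SAFB2, -1.69 for ANKS6, -1.64 for the 979-base member of KDM2A and -1.56 for ATF6. These members were selected for their change at 24 h.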

How the results depend on the processing

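The call of usage changes at 24 h (1647 members) became 13805 with no filter on low values (6143 higher and 7662 lower), 796 with only the 6 libraries of the contrast, 993 by log ratio and arcsine together and 675 with a change of at least 10 points. Without single replicates it ran from 984 to 1555. Between 2 and 24 h (1143) the count was 659 and 1766 with 0.1 and 1 added, 11803 with no filter, 402 with 6 libraries and 479 to 1105 without single replicates. At 1 h it was 21 by diffSplice and 0 to 1 without single replicates. At 2 h it was 3 with 0.1 added, 1 by arcsine, 68 by diffSplice and 0 to 1 without single replicates. FPKM calls at 1 h (0) were 7 with no filter and 0 to 1 without single replicates. Those at 2 h (2) were 11 with no filter, 1 with 1 added, 0 with FPKM over 1, 0 from 300 bases, 0 with 6 libraries, 1 with the replicate block and 0 to 4 without single replicates. FPKM calls at 24 h (3013) were 2197 to 2903 without single replicates. Loci with a changed summed share (834) were 1809 with no filter and 462 to 789 without single replicates. Class j major loci at 1 h minus 0 h (-12.3) were 11.7 with no filter and -34.8 to 11.2 without single replicates, and at 2 h (-27.0) 31.3 with no filter. The gains at 24 h in major loci (61.2 to 84.2) and in median share (1.06 to 1.42 points) kept their sign without single replicates.

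Named members lost their call in 9 of 308 other settings and 9 of 336 fits without a replicate, and none reversed. Both totals include the members named for their highest FPKM, which had no usage call to lose in the main test. RPLP1 and RPS4X gained a call by diffSplice. Summed shares of the named list genes gained a call in 9 other settings, 5 of them with 1 added, and lost it in 4, and gained 4 and lost 16 calls without single replicates. With only the 6 libraries of the contrast, NR1D1, ZNF33B, C16orf70, the 5200-base member of DPY19L1, TEKT4P2 and the 979-base member of KDM2A were lost. Whether equal replicate numbers mark paired libraries is not known. Deviations in usage of same-numbered libraries had a mean r of 0.0409, with 5 of 18 pairs above 0.1. Other pairs had a mean r of -0.0205, with 2 of 36 above 0.1. For level the mean r was 0.0531 (7 of 18) and -0.0266 (2 of 36). The closest library of another time point had the same number for 9 of 12 libraries. The replicate block gave 1607 usage calls at 24 h. The causes of these differences were not tested. Depth is unknown, and low FPKM of members may limit precision, which was not tested.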
